A study of Mus musculus with 3 samples.

Results

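The EGF receptor family and its ligands were examined on arrays of primary epidermal keratinocytes from neonatal mice that lacked RASSF9 and from wild-type mice. The genes were the receptors Egfr, Erbb2 and Erbb3, the ligands Areg, Ereg, Hbegf, Tgfa, Btc and Epgn, and the receptor inhibitor Errfi1. All probe sets that the platform annotation pairs with exactly 1 of these 10 symbols were taken, which gave 21 probe sets of 9 genes, out of 45037 probe sets that are not controls. No such probe set was found for Areg, so Areg was not analysed here.

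The cells were homozygous for the RASSF9 deletion (RASSF9-/-, 2 arrays of independent samples, called arrays 1 and 2) or wild type (WT, 1 array), all of the ICR strain. The RASSF9-/- mice came from a single transgenic line, in which an LMP1 gene of Epstein-Barr virus with its own promoter had inserted into the first intron of Rassf9 and removed part of it, so the transgene and the loss of RASSF9 cannot be told apart on these arrays. Apart from the arrays, the paper reports that LMP1 transcript was not detected in neonatal skin of this line, nor LMP1 protein in older skin. It also reports that restoring RASSF9 raised filaggrin and loricrin in RASSF9-/- keratinocytes. The cells grew in low-calcium, serum-free keratinocyte medium with a supplement whose EGF content is not given in the sources used here. The paper's general culture methods list another medium, which contained serum and added EGF. Whether the array cells were first plated in it is not stated. The sample descriptions give 48 h of culture for RASSF9-/- and 24 h for WT, whereas the methods state 2 days for every sample, so culture time and genotype may not be separable. The image names of RASSF9-/- array 1 and the WT array end in the same number and that of RASSF9-/- array 2 in another.

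EGF receptor signalling begins when a ligand binds EGFR outside the cell, which pairs 2 receptors and switches on their kinase domains. The ligands are made as membrane-anchored precursors and are released by metalloproteases. ERBB2 has no known ligand of its own and pairs with the other receptors, and ERBB3 binds neuregulins and has little kinase activity of its own. In epidermis this family drives keratinocyte growth, migration and survival and holds back terminal differentiation. ERRFI1, also called MIG6, binds active EGFR and ERBB2 and blocks their kinase domains, and its transcript is itself raised by EGF receptor signalling.

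Signals are MAS5 values in array units, a linear intensity scaled by the authors to a trimmed mean of 500 on every array, and levels of different probe sets were not set against each other. The median signal was 99 on RASSF9-/- array 1, 81.7 on RASSF9-/- array 2 and 90.8 on the WT array. Probe sets for Bacillus subtilis genes served as negative controls and reached 78.4, and signals under it are called background. The 2 Rassf9 probe sets had signals of 59.6 and 68.2 on RASSF9-/- array 1, 120 and 76.7 on RASSF9-/- array 2, and 478 and 340 on the WT array, lower on both RASSF9-/- arrays. All 9 keratinocyte markers with a probe set, out of 10 listed, had signals of at least 1460 on every array. All 6 melanocyte markers were also above background on every array, with summed signals of 24569 and 34602 on RASSF9-/- arrays 1 and 2 and 28986 on the WT array. Of 8 fibroblast markers, 8 and 6 were above background on RASSF9-/- arrays 1 and 2 and 7 on the WT array, and their summed signals were 2576, 3755 and 2982 in that order. Without Vim, which is not specific to fibroblasts, the sums were 1267 and 922 on RASSF9-/- arrays 1 and 2 and 1683 on the WT array, and 6 of the 8 markers were lower on RASSF9-/- array 2 than on array 1. Of 7 immune cell markers, 4 and 3 were above background on the RASSF9-/- arrays and 2 on the WT array, with sums of 1867, 1232 and 937. Of this list, Lyz2 had 786 and 638 on the RASSF9-/- arrays, against 9.60 on the WT array, H2-Ab1 had 514 and 83.5, against 422, and Ptprc was at 71.3 or less on every array. Of 5 endothelial markers, 3 and 1 were above background on the RASSF9-/- arrays and 1 on the WT array, with sums of 355, 335 and 262. No marker was at 0. In bulk samples, a change in the share of a cell type and a change in the RNA of each cell cannot be told apart. The signal ratio of 3' to 5' control probe sets was 0.939 and 0.832 on RASSF9-/- arrays 1 and 2 and 0.841 on the WT array for Gapdh, and 1.41, 1.37 and 1.43 for beta-actin.

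No gene of the family passed the test between RASSF9-/- and WT. In 6 of the 9 members measured, the WT signal lay between those of the RASSF9-/- arrays, beside 33.7% of all genes tested. With probe sets averaged per gene this held for 4 of 9, and the share of all genes was not counted. Ereg, Epgn and Errfi1 were at least 2-fold higher on RASSF9-/- array 2 than on RASSF9-/- array 1, and the receptors differed less between these arrays. Erbb2 and Erbb3 lay under WT on both RASSF9-/- arrays and Hbegf lay above WT on both by its brightest probe set but not with its probe sets averaged, without passing the test. Of the 21 probe sets, 16 of 9 genes passed the filter on low signals, and the brightest of each gene represents it unless stated otherwise.

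**Figure D1:**
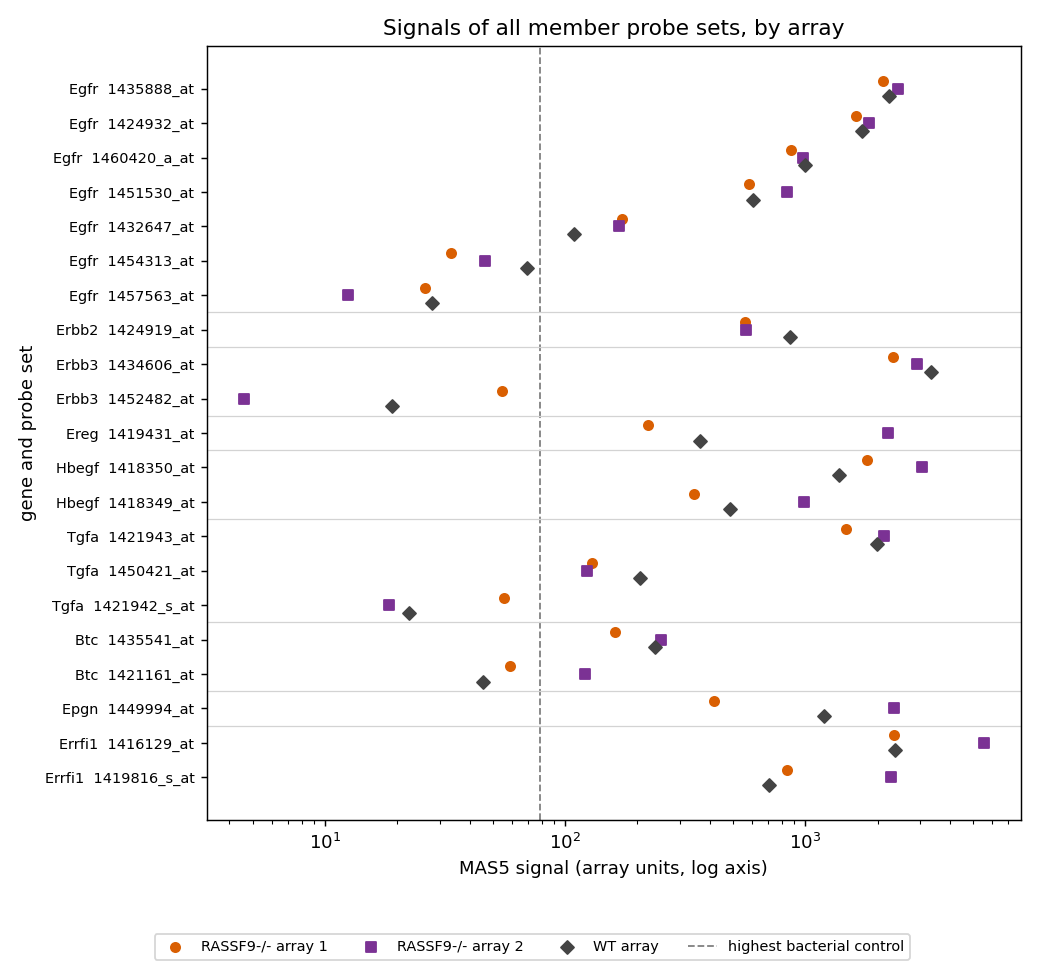
MAS5 signal (array units, log axis) of each of the 21 probe sets on the 3 arrays, with 1 marker for each array. The dashed line marks 78.4, the top signal of the bacterial controls. The RASSF9-/- array 2 markers of Ereg, Epgn, Hbegf and Errfi1 lie to the right of the markers of the other arrays, and those of the brightest Egfr probe sets lie close together.

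Among the receptors, Egfr, which binds all the ligands named here, differed little between the arrays. Its signal was 2114 and 2443 on RASSF9-/- arrays 1 and 2 and 2232 on the WT array, so the WT value lay between those of the RASSF9-/- pair. Averaged over the pair, the log2 fold change was 0.03 with a standard error (SE) of 0.35 and a 95% interval of -0.82 to 0.87 (limma, adjusted p = 1.00). This interval is wide, so a change of less than about that size was not detectable with these arrays. Of the 7 Egfr probe sets, 5 passed the filter, and their log2 fold changes ranged from -0.11 to 0.65. The highest of these belonged to a dim probe set with 173 and 168 on RASSF9-/- arrays 1 and 2 and 109 on the WT array. The other 2 Egfr probe sets were in the background on every array.

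Erbb2, the shared partner of the other receptors, had the closest RASSF9-/- pair of the family. Its signal was 563 and 567 on RASSF9-/- arrays 1 and 2, against 865 on the WT array, and both RASSF9-/- values lay under WT. Its log2 fold change was -0.62 (SE 0.42, 95% interval -1.63 to 0.40, limma adjusted p = 1.00). Erbb3, the neuregulin receptor, also lay under WT on both. Its signal was 2325 and 2926 on RASSF9-/- arrays 1 and 2, against 3337 on the WT array. For the pair, the log2 fold change was -0.36 (SE 0.35, 95% interval -1.21 to 0.50, limma adjusted p = 1.00). The second Erbb3 probe set was in the background on every array. Across all 11089 genes tested, 32.7% were lower than WT on both RASSF9-/- arrays, so 2 of the 9 members lower on both is a share near the background.

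Among the ligands, epiregulin (Ereg), which activates EGFR and ERBB4, had the widest spread. Its signal was 221 on RASSF9-/- array 1 and 2205 on RASSF9-/- array 2, against 365 on the WT array. RASSF9-/- array 1 was therefore the lowest and RASSF9-/- array 2 the highest of the 3, and WT lay between them. RASSF9-/- array 2 was 6.04-fold above WT and 9.99-fold above RASSF9-/- array 1. The log2 fold change over both was 0.94 with an SE of 1.22 (95% interval -2.02 to 3.89, limma adjusted p = 1.00). Ereg has 1 probe set, so no second probe set bears on this value.

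Epigen (Epgn), a low-affinity EGFR ligand made by epithelia, showed the same order of arrays. Its signal was 417 on RASSF9-/- array 1 and 2339 on RASSF9-/- array 2, against 1193 on the WT array. The log2 difference from WT was -1.52 on RASSF9-/- array 1 and 0.97 on RASSF9-/- array 2, with a log2 fold change over both of -0.27 (SE 0.94, 95% interval -2.54 to 2.00, limma adjusted p = 1.00). Epgn also has 1 probe set. Epgn, Ereg, Areg and Btc lie next to each other on mouse chromosome 5 in this order, with 0 other protein-coding genes between neighbours in RefSeq (assembly GRCm38.p6).

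Betacellulin (Btc), which activates EGFR and ERBB4, is the last gene of that row and moved less. Its signal was 161 on RASSF9-/- array 1 and 252 on RASSF9-/- array 2, against 238 on the WT array. The log2 fold change was -0.24 (SE 0.58, limma adjusted p = 1.00). A second Btc probe set did not pass the filter and was above background on 1 array, with 59.0 and 121 on RASSF9-/- arrays 1 and 2 and 45.3 on the WT array. RASSF9-/- array 2 was thus the highest for both Btc probe sets, and the other arrays were in the background for the second.

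Heparin-binding EGF-like growth factor (Hbegf), a ligand that keratinocytes induce after wounding, was the one member whose brightest probe set was higher than WT on both RASSF9-/- arrays. Its signal was 1810 and 3075 on RASSF9-/- arrays 1 and 2, against 1376 on the WT array. Its log2 fold change was 0.78 (SE 0.44, 95% interval -0.28 to 1.83, limma adjusted p = 1.00). The second Hbegf probe set disagreed for RASSF9-/- array 1, with 344 and 989 on RASSF9-/- arrays 1 and 2, against 484 on the WT array. Both probe sets had their highest signal on RASSF9-/- array 2, by 2.23-fold over WT for the brighter. With the 2 probe sets averaged, Hbegf was at -0.05 on RASSF9-/- array 1 and 1.09 on RASSF9-/- array 2 relative to WT on the log2 scale. Over all genes tested, 33.6% were higher than WT on both RASSF9-/- arrays, against 1 of 9 members.

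Transforming growth factor alpha (Tgfa), an EGFR ligand made by keratinocytes themselves, had a signal of 1484 and 2133 on RASSF9-/- arrays 1 and 2 and 1983 on the WT array. WT lay between the RASSF9-/- values, and the log2 fold change was -0.16 (SE 0.40, limma adjusted p = 1.00). A second, dimmer Tgfa probe set was lower on both RASSF9-/- arrays, with 130 and 123, against 204 on the WT array. The third was in the background on every array.

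Errfi1, the feedback inhibitor of the receptors, was high on RASSF9-/- array 2 by both of its probe sets. Signals of the brighter were 2339 on RASSF9-/- array 1 and 5524 on RASSF9-/- array 2, against 2375 on the WT array. RASSF9-/- array 1 and WT were nearly equal, and RASSF9-/- array 2 was 2.33-fold above WT. The other probe set had 843 and 2277 on RASSF9-/- arrays 1 and 2, against 709 on the WT array. The log2 fold change of the brighter was 0.60 (SE 0.54, 95% interval -0.71 to 1.91, limma adjusted p = 1.00).

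**Figure D2:**
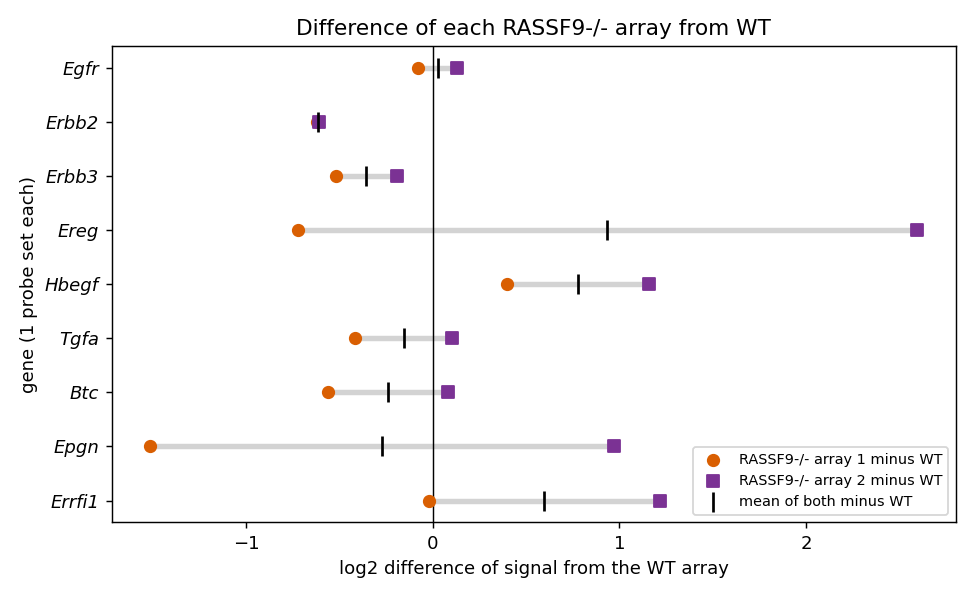
Log2 difference of signal between each RASSF9-/- array and the WT array for the 9 members, with a bar joining the arrays of the pair and a tick at their mean. The pair spans 0 for 6 members, lies under 0 for Erbb2 and Erbb3 and above 0 for Hbegf.

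The start-site regions of Errfi1 and Epgn are shown because both genes had 2-fold or larger differences between the RASSF9-/- arrays and RefSeq windows were given for them. Windows of 250 bases before a RefSeq start site (GRCm38.p6) were found for 7 of the 10 members, 8 windows in all. They were searched for the AP-1 motif TGANTCA and for TGACGTCA, the full cyclic AMP response element, each its own reverse complement, and a match of one is not a match of the other. The first was in 0 of the 8 windows, and 6.75% of all 32851 windows of this length hold it. The second was in the second of the 2 Errfi1 windows and in that of Areg, and 1.55% of all windows hold it. In Errfi1 its first base lies 51 bases before the start site. It is in capitals below, both sequences are from the plus strand, and a match in letters is a description only.
Errfi1, second start site, chr4:150854820-150855069: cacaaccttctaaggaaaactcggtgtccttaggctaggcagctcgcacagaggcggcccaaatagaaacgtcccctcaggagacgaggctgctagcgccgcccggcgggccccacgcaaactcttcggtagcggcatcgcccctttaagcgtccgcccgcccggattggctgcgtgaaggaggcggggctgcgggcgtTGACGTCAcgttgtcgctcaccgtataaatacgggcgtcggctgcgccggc
Epgn, chr5:91027267-91027516: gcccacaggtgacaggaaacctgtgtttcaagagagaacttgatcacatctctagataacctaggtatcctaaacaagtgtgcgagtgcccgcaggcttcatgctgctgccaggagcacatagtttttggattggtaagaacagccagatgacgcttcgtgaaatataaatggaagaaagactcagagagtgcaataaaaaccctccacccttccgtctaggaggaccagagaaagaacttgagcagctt

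All 9 members had a higher signal on RASSF9-/- array 2 than on RASSF9-/- array 1, by a median log2 difference of 0.64. Of all genes tested, 45.1% were higher on RASSF9-/- array 2 than on array 1, with a median log2 difference of -0.07. Both arrays carry the same genotype, so this is a spread within RASSF9-/-, and it was noticed after the values were seen. By probe set, 14 of the 16 that passed the filter were higher on RASSF9-/- array 2, and the exceptions were dim probe sets of Egfr and Tgfa. The share over all probe sets was not counted. With 5 of the 16 from Egfr, this count is not separate from that of the members. The count of members stayed at 9 after quantile normalization, beside 48.3% of all genes. Dividing by array medians moves every gene towards RASSF9-/- array 2 by the same amount, so the count could not fall, and 64.4% of all genes were then higher on that array, with a median of 0.21.

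By size, 3 of the 9 members, Ereg, Epgn and Errfi1, were at least 2-fold higher on RASSF9-/- array 2 than on RASSF9-/- array 1, against 5.03% of all genes tested. None of the 9 was at least 2-fold higher on RASSF9-/- array 1 than on array 2, against 8.63% of all genes. The log2 difference was 3.32 for Ereg, 2.49 for Epgn, 1.24 for Errfi1, 0.76 for Hbegf, 0.64 for Btc and 0.52 for Tgfa. For the receptors it was 0.33 for Erbb3, 0.21 for Egfr and 0.01 for Erbb2, so by brightest probe set each ligand measured had a larger difference than any receptor. This order depended on the probe set for Tgfa, which was at 0.22, under Erbb3, with probe sets averaged per gene. A dimmer Egfr probe set was at 0.53, beside 0.52 for the brightest of Tgfa, and the second Tgfa probe set was at -0.07. By this difference Ereg stood at rank 13 and Epgn at rank 58 of the 11089 genes, or at 9 and 44 when signals in the background were raised to 78.4. RASSF9-/- array 2 also had higher signals than RASSF9-/- array 1 for 6 of 6 melanocyte and 8 of 9 keratinocyte markers, beside 45.1% of all genes tested. Its signals were lower for 6 of 8 fibroblast, 6 of 7 immune and 3 of 5 endothelial markers. Of the immune and endothelial markers, only Cd68, Lyz2, H2-Ab1 and Kdr were above background on both RASSF9-/- arrays. Lyz2 and H2-Ab1 were lower and Cd68 and Kdr higher on RASSF9-/- array 2, and the order of the other immune and endothelial markers is not fixed. The summed keratinocyte signals were 115831 and 144031 on RASSF9-/- arrays 1 and 2 and 148828 on the WT array. The image name of RASSF9-/- array 2 also has another number, and the part of these in the difference was not tested.

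**Figure D3:**
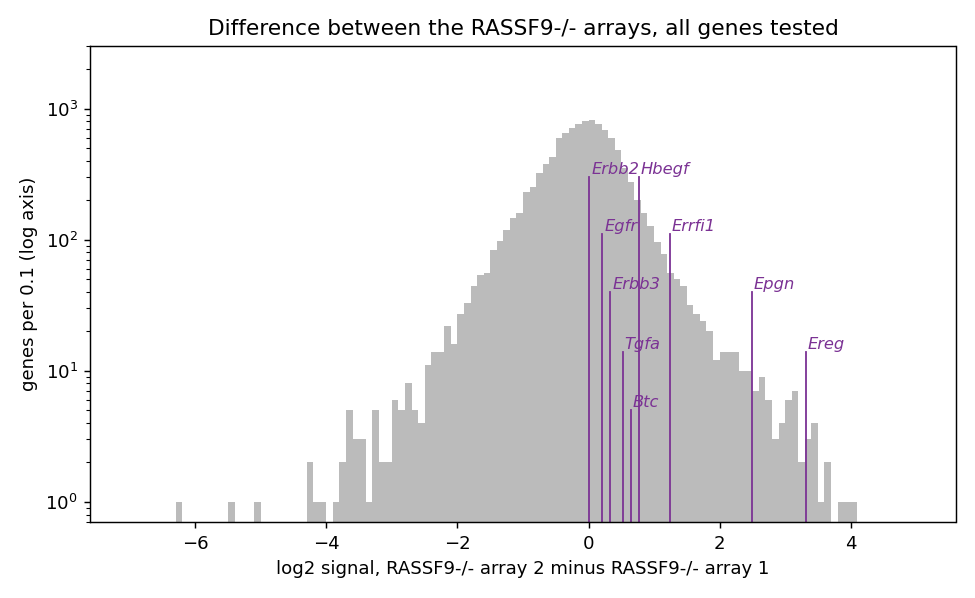
Histogram (log axis) of the log2 difference between RASSF9-/- array 2 and RASSF9-/- array 1 over the 11089 genes tested, in steps of 0.1, with a line at each of the 9 members. All 9 lines lie above 0, from Erbb2 at 0.01 to Ereg at 3.32.

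Compared with WT, 8 of the 9 members were lower on RASSF9-/- array 1, the array that shares the number in its image name with WT. Of all genes, 46.1% were lower than WT on RASSF9-/- array 1. The median log2 difference of the 9 members from WT was -0.52 on RASSF9-/- array 1 and 0.13 on RASSF9-/- array 2, beside 0.05 and -0.04 over all genes. Ereg, Hbegf and Errfi1 (3 of 9) were at least 2-fold above WT on RASSF9-/- array 2, where 6.87% of all genes were. On RASSF9-/- array 1, 0 of 9 were, where 5.83% of all genes were. Both differences share the WT array. For the 5 ligands measured the medians were -0.56 and 0.97, and for the 3 receptors -0.52 and -0.19. The members fell on opposite sides of WT on the RASSF9-/- arrays in 6 of 9 cases, against 33.7% of all genes.

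Averaged over the RASSF9-/- pair, the 9 members had a median log2 fold change of -0.16, against -0.01 over all genes. No member was at least 2-fold from WT on both RASSF9-/- arrays, where 2.89% of all genes were higher and 2.24% lower by that size. In limma, 0 of the 9 members had an adjusted p under 0.05, and 0 an unadjusted p under 0.05, while 9 genes of all tested (0.0812%) were called higher and 0 genes (0%) lower. At an unadjusted p under 0.05, limma gave 345 genes higher and 270 lower. The methods name t-tests for the study but no test for the arrays. Applied here without adjustment, the methods' t-test called 258 genes higher and 235 lower at that level, and 1 member, Erbb2. A gene's own spread came from the RASSF9-/- pair alone, with 1 residual degree of freedom, and the t-test used only that. In limma it was drawn towards the spread of genes of similar signal, with 5.31 prior degrees of freedom. The limma SEs and intervals therefore rest mostly on other genes. An exact permutation of 2 arrays against 1 cannot give a two-sided p under 0.333.

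Other genes of the pathway were read from lists of ligands and receptors, ligand release, signal transmission, receptor restraint and ERK-responsive transcripts, and in limma no gene of these lists passed the test after adjustment over all genes. The counts by direction of these lists were not tested. Of the other receptors and ligands, 1 of 6 was measured. Nrg1, a neuregulin that binds ERBB3, had 269 and 353 on RASSF9-/- arrays 1 and 2, against 168 on the WT array, a log2 fold change of 0.87 (SE 0.53). Erbb4 and Egf were in the background on every array, at 28.0 or less and 50.5 or less.

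Genes of ligand release were all measured, 10 of 10, and 4 were lower and 2 higher on both RASSF9-/- arrays, beside 32.7% and 33.6% of all genes. Timp3, an inhibitor of the sheddase ADAM17, was the gene of this list furthest from WT. Its signal was 3442 on RASSF9-/- array 1 and 8441 on RASSF9-/- array 2, against 20049 on the WT array. Both RASSF9-/- values lay well under WT, with a log2 fold change of -1.90 (SE 0.54, limma adjusted p = 0.572). Adam15 had 744 and 989 on RASSF9-/- arrays 1 and 2, against 1719 on the WT array, and Frmd8, a partner of the iRhom proteins that carry ADAM17 to the cell surface, had 1391 and 1498, against 2201. Adam17 itself, which releases several ligands of this family, had 1610 and 1974 on the RASSF9-/- arrays and 1682 on the WT array.

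Of 20 genes of adaptors and the kinase cascade, 15 were measured, and 8 were lower and 4 higher on both RASSF9-/- arrays, beside 32.7% and 33.6% of all genes. Their median was -0.17 on the log2 scale. Plcg1, a phospholipase that EGFR phosphorylates, was at -0.74 (SE 0.46), the adaptor Shc1 at -0.65 (SE 0.40) and the docking protein Gab1 at -0.65 (SE 0.38). Each of the 3 was lower on both RASSF9-/- arrays without passing the test. Of 16 genes of receptor degradation and restraint, all 16 were measured, 10 lower and 5 higher on both RASSF9-/- arrays, beside the same 32.7% and 33.6%, with a median of -0.10, against -0.01 over all genes. Lrig1, which promotes degradation of the receptors, had 2031 and 1032 on RASSF9-/- arrays 1 and 2, against 672 on the WT array. Its relative Lrig3 was on the other side of WT, with 546 and 316 on RASSF9-/- arrays 1 and 2, against 822 on the WT array. Ubash3b, a phosphatase that acts on active receptors, had 117 and 152, against 81.8, a WT value close to the background limit of 78.4. Its log2 fold change was 0.70 (SE 0.63).

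ERK-responsive transcripts went both ways, with 16 of 17 measured, 7 higher and 5 lower on both RASSF9-/- arrays (33.6% and 32.7% of all genes) and a median log2 fold change of 0.22. Egr1, an immediate early factor, had 964 and 803 on RASSF9-/- arrays 1 and 2, against 2726 on the WT array, a log2 fold change of -1.63 (SE 0.38, limma adjusted p = 0.393). Plaur, the urokinase receptor, had 1789 and 2934 on the RASSF9-/- arrays, against 1002 on the WT array. Ier3, an immediate early gene, had 26804 and 30022, against 15082. So Egr1 lay under WT, and Plaur and Ier3 above WT, on both RASSF9-/- arrays, none past the test.

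Of the 16 measured genes of this list, 2 were at least 2-fold higher on RASSF9-/- array 2 than on RASSF9-/- array 1, against 5.03% of all genes. By the same size, 1 was higher on RASSF9-/- array 1, against 8.63% of all genes. These genes were named after their values were seen. Fosl1, an AP-1 subunit, had 347 on RASSF9-/- array 1 and 2071 on RASSF9-/- array 2, against 316 on the WT array. Dusp5, a phosphatase of nuclear ERK, had 742 and 2423, against 975. Etv5 went the other way, with 265 on RASSF9-/- array 1 and 119 on RASSF9-/- array 2, against 212 on the WT array. RASSF9-/- array 2 alone was at least 2-fold above WT for Fosl1, Dusp5, Phlda1, Myc and Plaur, and for the members Ereg, Hbegf and Errfi1. Egr1, Fos, Dusp4, Dusp6 and Spry1 of this list were lower than WT on both RASSF9-/- arrays. Of the 16 genes, 5 were at least 2-fold above WT on RASSF9-/- array 2 and 0 on RASSF9-/- array 1, beside 6.87% and 5.83% of all genes. In the list, 12 of 16 genes were higher on RASSF9-/- array 2 than on array 1, beside 45.1% of all genes.

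**Figure D4:**
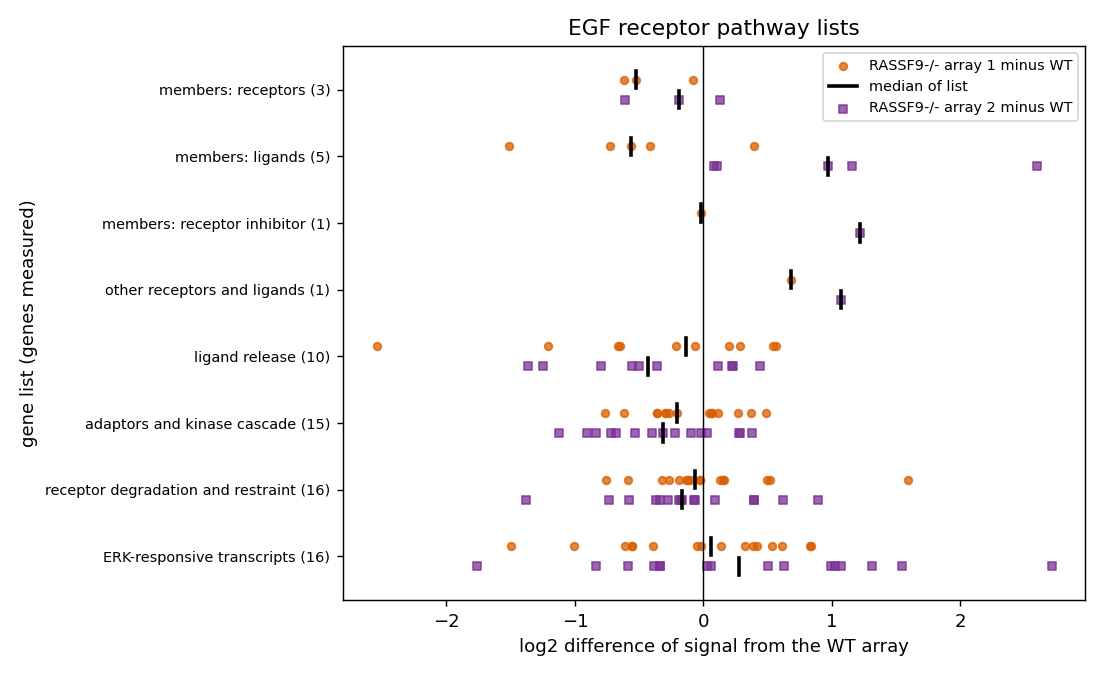
Log2 difference of signal from the WT array for every measured gene of the members and of the 5 pathway lists, with circles for RASSF9-/- array 1, squares for RASSF9-/- array 2 and a black bar at the median of each. The ligands lie mostly left of 0 on array 1 and right of 0 on array 2, whereas the lists of adaptors and of receptor restraint have medians between -0.32 and -0.06.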

How the data were processed

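RNA of primary keratinocytes of 2 RASSF9-/- samples and 1 WT sample was hybridized to Affymetrix GeneChip arrays of the mouse genome. The authors deposited MAS5 signals, an intensity per probe set on a linear scale, and the values have a trimmed mean of 500 on each array with 2% removed at each end. Image files, detection calls and GeneSpring, which the methods name, were not used here.

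Log2 values were taken without a pseudocount. Of the probe sets, 34945 carry 1 symbol in the annotation, 932 several and 9160 none, and RefSeq (GRCm38.p6) holds the gene ID of 34741, with 0 symbols changed. Probe sets with a mean log2 signal at or above the 50th percentile (a signal of 82.7) were kept and each gene is given by its brightest, 11089 genes in all. The test between RASSF9-/- and WT was limma (version 3.58.1, R 4.3.3) with lmFit and a trended eBayes, two-sided, and Benjamini-Hochberg adjustment over all genes and a threshold of 0.05. The procedure was tested on simulated data. The highest of 27 Bacillus subtilis control probe sets was taken as background.

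The members and lists were chosen with earlier results of these data known. All members are named, and of each other list up to 3 genes with the largest smaller change of the RASSF9-/- arrays in 1 direction. Adam17, Fosl1, Dusp5, Etv5, Phlda1, Myc, Fos, Dusp4, Dusp6, Spry1, Erbb4 and Egf fall outside this rule and were named after their values were seen. Some genes of the lists are not reported here. Precision is limited by having 3 arrays in all. The alternatives were division by the array median, quantile normalization, no filter, the 75th percentile, adding 32 before the log2, averaging the probe sets of a gene, testing every probe set, limma without the trend, the methods' t-test, raising low signals to the background limit, and leaving out each RASSF9-/- array.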

Additional observations from a re-analysis of the deposited data

How the results depend on the processing

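Alternatives with a test gave 80 values of member log2 fold changes. All 80 kept their direction and none passed the threshold, with a lowest adjusted p of 0.989. Many of them could not change direction. With no filter, the 75th percentile, no trend, the background limit or the t-test, the member fold changes were the main ones by construction. Only the scaling, the pseudocount and the averaging of probe sets could alter them. Btc was too dim for the filter at the 75th percentile. Leaving out 1 RASSF9-/- array decided the direction of 6 of 9 members. Without RASSF9-/- array 1 the log2 difference from WT was 2.60 for Ereg, 0.97 for Epgn, 1.22 for Errfi1, 0.13 for Egfr, 0.11 for Tgfa and 0.08 for Btc. Without RASSF9-/- array 2 it was -0.72 for Ereg, -1.52 for Epgn, -0.02 for Errfi1, -0.08 for Egfr, -0.42 for Tgfa and -0.56 for Btc. The members higher than WT numbered 1 to 7 and those lower 2 to 8 when an array was left out. These have no test because no residual degree of freedom remains. Of all genes, 46.1% were lower than WT on RASSF9-/- array 1, and the share higher than WT on RASSF9-/- array 2 was not counted. With probe sets averaged per gene 2 members, Egfr and Errfi1, were higher on both RASSF9-/- arrays, 3 were lower on both, with Tgfa added, and 4 were on opposite sides of WT, among them Hbegf. The count of members at least 2-fold higher on RASSF9-/- array 2 than on array 1 was 4, with Hbegf added, after division by the array median and with probe sets averaged. Division by the median also raised the share of all genes from 5.03% to 9.06%. With probe sets averaged, no share of all genes was counted, by direction or by size.

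Across all genes, the count called higher was 0 with quantile normalization, 0 without the intensity trend, 0 with low signals set to the background limit, and 5 each with the 75th percentile and a pseudocount of 32. The count called lower was 1 after division by the array median and 1 with every probe set tested. The methods' t-test with Benjamini-Hochberg adjustment called 3 genes higher and 1 lower, and at an unadjusted p under 0.05 it gave 258 higher and 235 lower. Unadjusted, the methods' t-test called 1 member, Erbb2, whose RASSF9-/- values were nearly equal, and adjusted it called 0 members. No paired analysis was possible because the WT group has 1 array.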

Other observations

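The 12 genes ahead of Ereg in the log2 difference between RASSF9-/- array 2 and RASSF9-/- array 1 were looked up after the rank was seen. Of them, 5 were in the background on RASSF9-/- array 1, so that the size of their differences is not fixed. These were Sprr2j-ps, Dlgap1, Syt4, Flg and Gsdma, all above background on RASSF9-/- array 2. Flg, the filaggrin gene, had 53.1 and 570 on RASSF9-/- arrays 1 and 2, against 589 on the WT array. The other genes ahead of Ereg were, in order of the difference, Upk3bl, Lce3c, Slc25a48, Lce3a, Csta1, Efemp1 and Calm4. Upk3bl had a signal of 553 on RASSF9-/- array 1 and 9259 on RASSF9-/- array 2, against 8572 on the WT array, and Calm4, a calmodulin-like protein of the epidermis, had 212 and 2154, against 4367. Lce3c, a late cornified envelope gene, had 264 and 3421, against 552, and Lce3a, of the same family, had 85.6 and 992, against 123. Slc25a48 had 216 and 2760, against 357, Csta1 had 261 and 2776, against 619, and Efemp1 had 296 and 3152, against 559. No gene group was tested here.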
